A study of Mus musculus with 9 samples.

Results

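The interleukin-1 family is a set of secreted cytokines, their receptors and their natural inhibitors, and the inflammasome is the cytosolic machine that activates some of those cytokines. The description covers 10 genes of the 32285 in the deposited matrices, chosen by name, with earlier results of these data known: the ligands Il1b, Il18 and Il33, the antagonist Il1rn, the decoy receptor Il1r2, the receptor chains Il1r1, Il1rap, Il1rl1 and Il18rap, and the inflammasome sensor Nlrp3. All 10 were found in the files. They were measured by single-nucleus RNA sequencing of hearts from 9 wild-type male mice aged 9 to 10 weeks, with 1 library for each heart. NS-Sham hearts had a sham operation and saline, NS-I/R hearts had 45 min of coronary occlusion with 24 h of reperfusion and saline, and Enpa-I/R hearts had the same ischemia-reperfusion (I/R) with enpatoran, an antagonist of the RNA sensor TLR7, in doses of 5 mg/kg. Each group held 3 hearts. All mice received 2 injections, the first listed at 1 h before occlusion, and the labels disagree on when the second was given. No sham heart received enpatoran, so its action without injury was not measured.

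Interleukin-1β and interleukin-18 are made as inactive precursors. NLRP3, once triggered, assembles with an adaptor and caspase-1, which cuts both precursors and opens pores through which they leave the cell. Interleukin-1β binds the receptor IL1R1, which needs the accessory chain IL1RAP to signal through MYD88 to NF-κB, while the antagonist IL1RN blocks that receptor and the decoy IL1R2 binds the cytokine without signalling. Interleukin-33 is a nuclear alarmin of stromal and endothelial cells that is released on damage and read by ST2, the product of Il1rl1, and IL18RAP is the signalling chain of the interleukin-18 receptor. In the infarcted heart this family is known for driving the early leukocyte response.

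In the GENCODE vM21 annotation of GRCm38, matched by gene ID, 4 of the receptor genes lie close together on the plus strand of chromosome 1: Il1r2 at chr1:40074079-40125231, Il1r1 at chr1:40225080-40317257, Il1rl1 at chr1:40429570-40465415 and Il18rap at chr1:40515362-40551705. Il1b lies at chr2:129364570-129371139 on the minus strand, Il1rn at chr2:24336853-24351494, Nlrp3 at chr11:59541568-59566956, Il18 at chr9:50554827-50581840, Il1rap at chr16:26581704-26730117 and Il33 at chr19:29925114-29960718, all of these 5 on the plus strand. Il1b, Il1r2, Il1rap and Il18 overlap genes on the opposite strand, and Il1r1 and Il1r2 also overlap transcript models on their own strand, Gm38070 and Gm37347. The counting settings were not given in the sources used here, so reads of those partners could be included or lost.

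The promoters of 4 of the 5 members are shown that were called higher after I/R in macrophages and whose UMIs in NS-I/R came mostly from macrophages and neutrophils. The other, Il1rn, has 3 listed starts and is not shown. Each window runs from 250 bases before to 50 bases after the transcription start, 5′ to 3′ on the gene's strand (RefSeq, GRCm38.p6): Il1b at chr2:129371090-129371389 (minus strand), Il1r2 at chr1:40085843-40086142, Il18rap at chr1:40515112-40515411 and Nlrp3 at chr11:59542436-59542735 (plus strand, 1 of 2 starts). Capitals mark matches on either strand to 4 searched motifs. TATAAA is the TATA box, where the basal transcription machinery can sit. The core GAGGAA is bound by PU.1, a factor of myeloid cells. C/EBP factors, also active in myeloid cells, bind TTNNGNAAT. The hypoxia response element and some E-boxes share the core ACGTG.
Il1b: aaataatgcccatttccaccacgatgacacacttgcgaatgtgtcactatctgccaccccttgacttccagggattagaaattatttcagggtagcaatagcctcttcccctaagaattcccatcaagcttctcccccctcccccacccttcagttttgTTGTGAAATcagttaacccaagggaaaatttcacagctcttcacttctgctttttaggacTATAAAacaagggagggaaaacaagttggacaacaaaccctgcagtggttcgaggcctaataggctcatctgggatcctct
Il1r2: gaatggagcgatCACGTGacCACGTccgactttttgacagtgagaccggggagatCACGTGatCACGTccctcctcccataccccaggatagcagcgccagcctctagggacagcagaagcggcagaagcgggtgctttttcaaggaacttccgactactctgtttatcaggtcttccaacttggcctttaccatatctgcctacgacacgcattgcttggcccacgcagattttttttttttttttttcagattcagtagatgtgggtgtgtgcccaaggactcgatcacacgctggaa
Il18rap: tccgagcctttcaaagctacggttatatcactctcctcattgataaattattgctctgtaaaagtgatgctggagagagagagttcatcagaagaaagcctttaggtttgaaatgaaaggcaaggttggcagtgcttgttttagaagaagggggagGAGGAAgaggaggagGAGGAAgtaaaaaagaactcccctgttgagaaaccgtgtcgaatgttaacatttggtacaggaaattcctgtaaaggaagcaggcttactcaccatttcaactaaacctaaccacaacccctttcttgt
Nlrp3: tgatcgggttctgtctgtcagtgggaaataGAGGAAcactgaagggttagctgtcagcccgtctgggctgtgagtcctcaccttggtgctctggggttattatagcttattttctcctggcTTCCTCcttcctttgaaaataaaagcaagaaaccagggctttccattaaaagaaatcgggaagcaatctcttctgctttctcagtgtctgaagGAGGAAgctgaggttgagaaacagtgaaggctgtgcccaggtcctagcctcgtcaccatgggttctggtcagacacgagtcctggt
The Il1b window held TATAAA and TTNNGNAAT, the Il18rap and Nlrp3 windows held 2 and 3 copies of GAGGAA, and the Il1r2 window held 6 ACGTG matches, of which 4 pair up on opposite strands over the palindrome CACGTG. Of 32851 mouse promoters of this length, 13.6% held TATAAA, 28.3% GAGGAA, 11.5% TTNNGNAAT and 19.6% ACGTG. A match describes letters and shows no binding.

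After quality filters 41979 nuclei were kept, 3160 to 6471 per library with median depths of 2365 to 3263.5 UMIs (unique molecular identifiers, 1 per counted RNA molecule). They formed 28 clusters, of which 27 were named from markers into 13 classes, called by the suffix "-like" at their first mention here and by the plain name afterwards. Of the barcode sequences, 425 occurred in more than 1 library. NS-I/R replicate 3 had lower Il18rap, Il1r1, Nlrp3 and Il1rl1 in macrophage-like and neutrophil-like nuclei than NS-I/R replicates 1 and 2, so differences whose call or direction changes without it are also given without it, here or in the closing section. That library was singled out by its own values of these members. Calls and adjusted p-values without it are therefore given as description and not as support. The neutrophil-like cluster passed 7 of its 8 markers but also carried endothelial marker RNA, 2.78 to 6.97 UMIs per nucleus in NS-I/R and 2.16 to 3.83 in Enpa-I/R. Its cardiomyocyte marker RNA summed to 5.36 to 6.17 UMIs per nucleus in NS-I/R and 4.75 to 9.98 in Enpa-I/R. With finer clustering 31.7% of its NS-I/R nuclei and 15.4% of its Enpa-I/R nuclei fell into a mixed cluster without a name.

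Over all nuclei, 8 of the 10 members were higher in NS-I/R than in NS-Sham (adjusted p under 0.05, edgeR quasi-likelihood test with Benjamini-Hochberg adjustment, where 47.8% of all tested genes were called in either direction and 23.9% were called higher), and 7 of the 10 were lower in Enpa-I/R than in NS-I/R (background 16.5%, and 8.74% for lower genes). Il1b stood at 0.885, 0.305 and 0.299 CPM (counts scaled to a common library total with TMM factors) in the 3 sham libraries, at 30.1, 14.6 and 16.3 in NS-I/R and at 6.02, 10.2 and 8.24 with enpatoran. Nlrp3 stood at 2.40, 2.20 and 1.20 CPM, then 20.5, 12.96 and 10.5, then 3.72, 7.36 and 4.12. For both genes the 3 groups did not overlap, with NS-I/R highest and sham lowest. The log2 fold changes from sham were 5.41 for Il1b, 5.89 for Il1rn, 6.64 for Il1r2, 6.099 for Il18rap, 2.89 for Nlrp3, 1.41 for Il1r1, 0.66 for Il1rap and 0.48 for Il33. With enpatoran Il18rap differed by -3.73, Il1r2 by -1.60, Nlrp3 by -1.54, Il1b by -1.32, Il1rn by -1.03, Il1r1 by -0.73 and Il1rap by -0.59. Il18 and Il1rl1 were called in neither contrast. As description only, the enpatoran difference of Il1rl1 (-0.45) was called without NS-I/R replicate 3 (-0.83, adjusted p = 0.023). Both contrasts share the NS-I/R libraries, and the I/R call of Il33 was lost in 6 of 18 alternatives. In such totals more cells of a type and more RNA per cell cannot be told apart: neutrophil nuclei were 8.86% ± 1.38 of nuclei in NS-I/R and 2.72% ± 1.94 with enpatoran (SD, n = 3), against 6 such nuclei in all sham libraries. The enpatoran calls also rested on the shared estimate of spread: with only the 6 I/R libraries in the fit, Il18rap alone was called.

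The classes divided the family between leukocytes and stroma. In NS-I/R, neutrophils held 59.9% of all Il1b UMIs, 65.0% of Il1r2, 60.2% of Il18rap, 46.6% of Il1rn and 43.1% of Nlrp3, and macrophages held a further 18.4% of Il1b and 38.7% of Nlrp3. Fibroblasts held 53.7% of Il1r1 and 79.4% of Il33 UMIs. In sham hearts macrophages held 92.4% of the Nlrp3 UMIs and 86.4% of the Il1rl1 UMIs. T/NK-like nuclei held 61.4% of Il18rap in sham, 54 of 88 UMIs.

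**Figure D1:**
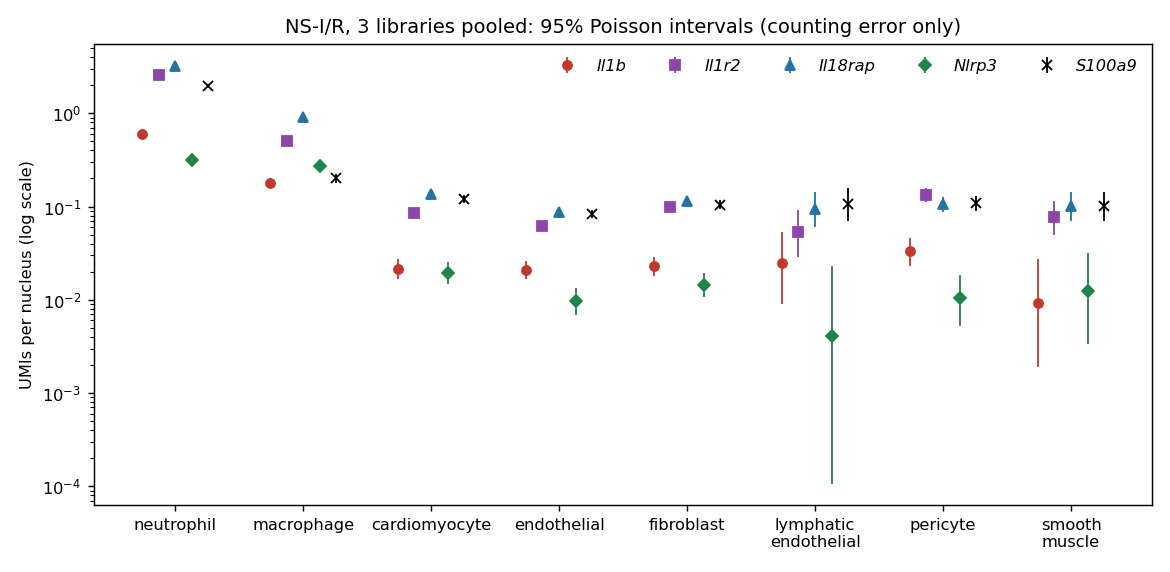
UMIs per nucleus (log scale, vertical axis) of Il1b, Il1r2, Il18rap, Nlrp3 and the neutrophil marker S100a9 in 8 classes of NS-I/R nuclei, pooled over 3 libraries, with 95% Poisson intervals that cover counting error only. Each gene stood higher in neutrophils and macrophages than in the 6 other classes, where Il18rap lay between 0.0880 and 0.136.

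Within the 7 classes whose libraries each held 25 nuclei or more (cardiomyocyte-, endothelial-, fibroblast-, lymphatic endothelial-, macrophage-, pericyte- and smooth muscle-like), 36 of the 70 member-by-class pairs passed the filter on low counts. Of these, 26 were called after I/R, 24 higher and 2 lower, where 33.1% of all gene tests in these classes were called (16.9% higher, 16.2% lower). With enpatoran 14 were called, 1 higher and 13 lower, against a background of 8.19% (3.44% higher, 4.75% lower). Many of those calls were leukocyte genes in classes that had next to no UMI of them in sham, so they passed the filter only through the I/R groups. In macrophages, Il1b, Il1r2 and Il1rn also passed the filter only with the I/R groups. Counted in macrophages alone for Il1b, Il1rn, Il1r2, Il18rap and Nlrp3, a count chosen after the values were seen, 15 of 25 pairs were called after I/R (13 higher, 2 lower) and 6 of 25 with enpatoran (1 higher, 5 lower).

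Those leukocyte members appeared at low levels in the 6 other tested classes of NS-I/R hearts. Il1b lay between 0.00929 and 0.0330 UMIs per nucleus there, against 0.180 in macrophages and 0.604 in neutrophils. Il18rap lay between 0.0880 and 0.136, against 0.919 and 3.20. Il1r2 lay between 0.0537 and 0.134, against 0.507 and 2.59, and Nlrp3 between 0.00413 and 0.0194, against 0.275 and 0.315. The neutrophil marker S100a9 lay between 0.0835 and 0.121 in the same 6 classes and at 1.98 in neutrophils. Whether those classes make S100a9 themselves was not tested. The depths were unequal: the lowest and highest library medians in NS-I/R were 7642 and 9137 UMIs in cardiomyocytes, 1660 and 1723 in endothelial nuclei and 1028 and 1305 in neutrophils. Free RNA was not estimated, so the calls for Il1b, Il1r2, Il18rap and Nlrp3 in non-leukocyte classes are not read as expression by those cells. Among them, the enpatoran difference of Il1r2 in pericytes (-1.93, adjusted p = 0.045) was lost in 10 of 18 alternatives. That of Il1b in endothelial nuclei (-1.02, adjusted p = 0.10) was called without NS-I/R replicate 3 (-1.13, adjusted p = 0.042), given as description only. As values, the pericytes of sham hearts had 0 Il18rap UMIs and those of NS-I/R hearts 113, at least 41.1-fold higher if the sham sum is set to 3 counts. For Il1r2 the sums were 0 and 142, at least 51.7-fold higher, and both bounds cover counting error only.

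In macrophage-like nuclei, 8 of the 9 members tested were called after I/R, 7 higher and 1 lower (background 34.9%), and 5 of 9 with enpatoran, 1 higher and 4 lower (background 6.28%). The median log2 fold change of the 9 was 2.88 after I/R, beside 0.03 over all 10393 genes tested, and -0.62 with enpatoran, beside -0.01. Il1b, Il1r2 and Il1rn were low in sham macrophages, at 0.0231, 0.0134 and 0.00243 UMIs per nucleus. They passed the filter on low counts only with the I/R groups, which favours a call as higher after I/R. The I/R count and median include them and are given as description. Il1b, the central ligand, was at 19.8, 4.94 and 5.29 CPM in sham hearts, 97.2, 55.4 and 64.2 in NS-I/R and 22.8, 35.0 and 87.4 with enpatoran. All NS-I/R libraries exceeded all sham libraries, while Enpa-I/R replicate 3 lay among the NS-I/R libraries. The I/R change was a log2 fold change of 2.88 ± 0.55 (SE; adjusted p = 0.00087), and the enpatoran difference of -0.62 was not called (adjusted p = 0.38). Il18, the other inflammasome substrate, was at 69.4, 34.6 and 37.1 CPM in sham hearts, 25.8, 30.5 and 31.3 in NS-I/R and 50.8, 60.7 and 52.2 with enpatoran. Every Enpa-I/R library lay above every NS-I/R library, and the difference of 0.90 ± 0.25 was called (adjusted p = 0.045) but lost in 9 of 18 alternatives, whereas the I/R difference of -0.67 was not called (adjusted p = 0.068) although NS-I/R lay under every sham library.

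Both inhibitors rose in macrophages. Il1rn, the receptor antagonist, was at 1.65, 0.989 and 0 CPM in sham hearts, 20.6, 15.3 and 18.8 in NS-I/R and 8.76, 17.1 and 13.6 with enpatoran. The sham value rested on 2 UMIs, and the ratio of 64 to 2 UMIs, scaled to the summed counts, was 18.3 (95% interval 4.86 to 154, counting error only). Il1r2, the decoy, was at 4.96, 4.94 and 7.94 CPM in sham hearts, 187, 161 and 256 in NS-I/R and 57.8, 45.1 and 44.3 with enpatoran. The 3 groups of Il1r2 values were fully separate, with enpatoran between the others. The log2 fold changes were 5.15 ± 0.31 after I/R (adjusted p = 2.3e-08) and -2.03 ± 0.20 with enpatoran (adjusted p = 0.00029). For Il1rn the enpatoran difference was -0.46 (adjusted p = 0.47), with 1 of its libraries inside the NS-I/R range.

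Of the receptors, Il1r1 was at 19.8, 9.89 and 34.4 CPM in sham macrophages, 343, 370 and 141 in NS-I/R and 28.04, 57.6 and 34.0 with enpatoran. NS-I/R stood above all other libraries, and Enpa-I/R overlapped sham. The log2 fold changes were 3.94 ± 0.44 (adjusted p = 8e-06) and -2.81 ± 0.36 (adjusted p = 0.00077). Il18rap was at 13.2, 9.89 and 15.9 CPM in sham hearts, 515, 537 and 102 in NS-I/R and 50.8, 33.5 and 29.5 with enpatoran, so that the groups were separate although replicate 3 of NS-I/R was far under the other two. Its changes were 4.96 ± 0.59 (adjusted p = 1.5e-05) and -3.32 ± 0.46 (adjusted p = 0.0011). Il1rap, the shared accessory chain, was at 46.2, 53.4 and 26.5 CPM in sham hearts, 107, 105 and 111 in NS-I/R and 61.3, 60.7 and 93.1 with enpatoran. It rose by 1.27 ± 0.24 on the log2 scale (adjusted p = 0.00067), and the enpatoran difference of -0.60 was not called (adjusted p = 0.10) although the libraries did not overlap.

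Il1rl1 was the member that fell in macrophages after I/R. It was at 142, 122 and 154 CPM in sham hearts, 37.0, 45.8 and 7.05 in NS-I/R and 35.0, 31.1 and 26.1 with enpatoran. Both I/R groups lay under all sham libraries and overlapped each other. Il1rl1 fell by 2.23 ± 0.37 on the log2 scale (adjusted p = 0.0003), or by 1.72 without NS-I/R replicate 3, and the enpatoran difference of 0.08 was not called (adjusted p = 0.93). Nlrp3, the inflammasome sensor, was at 56.2, 60.3 and 39.7 CPM in sham hearts, 149, 108 and 78.3 in NS-I/R and 42.9, 66.2 and 71.5 with enpatoran. NS-I/R lay above every other library. It rose by 1.05 ± 0.27 (adjusted p = 0.0065), and the enpatoran difference of -0.89 ± 0.25 was called (adjusted p = 0.043) but lost in 12 of 18 alternatives. Il33 did not pass the filter in macrophages, with at most 4 UMIs in a library.

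**Figure D2:**
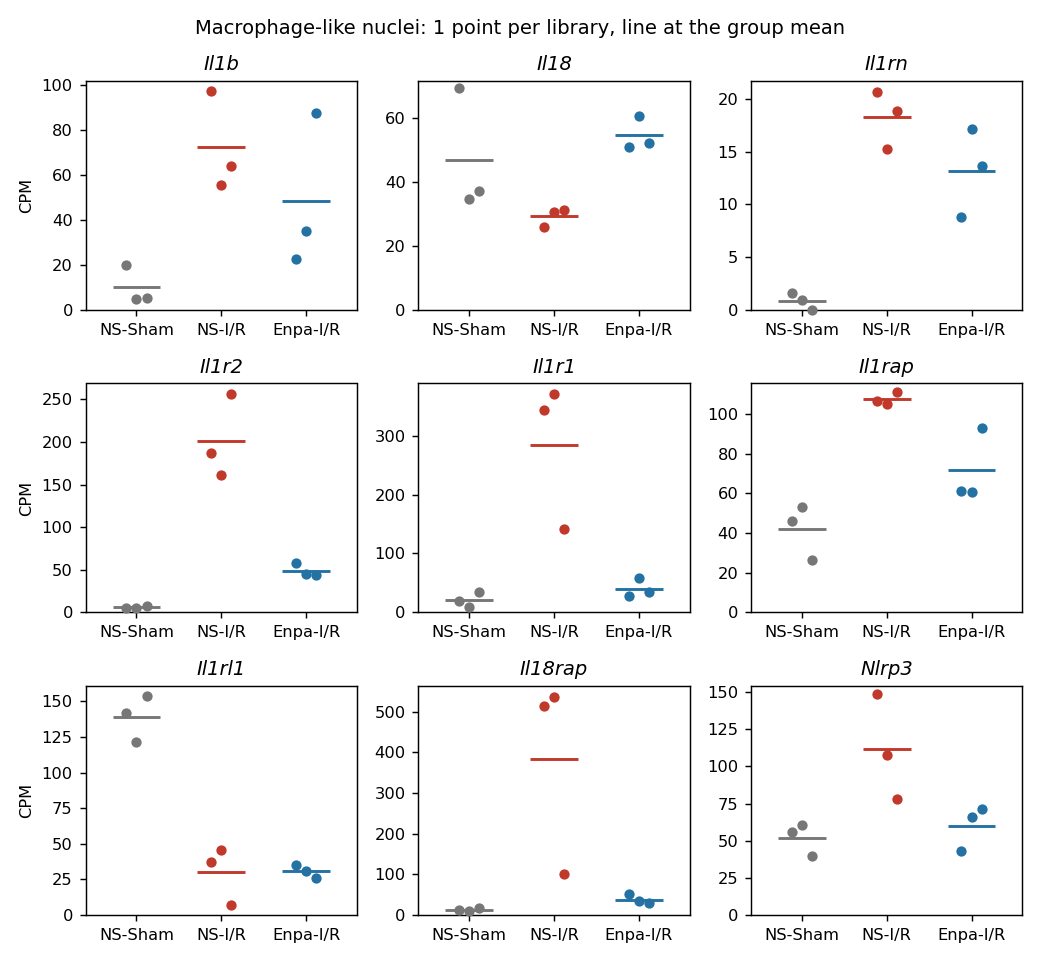
CPM in macrophage-like nuclei (vertical axes from 0, 1 panel per member), with 1 point per library and a line at each group mean. Il1r1, Il1r2 and Il18rap were high in NS-I/R and low in the other groups, Il1rl1 was high in sham alone, and 1 NS-I/R library, replicate 3, lay under the other two for Il1r1 and Il18rap.

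The macrophage class held 2 clusters whose balance differed between groups. Cluster 7, led by F13a1, Mrc1 and Cd163, had 780 sham, 689 NS-I/R and 729 Enpa-I/R nuclei, and cluster 15, led by F13a1, Arg1, Tgfbi and Fn1, had 43, 717 and 405, which was 5.2%, 51.0% and 35.7% of macrophages. Within cluster 7 alone, the same fit still called Il1r1 (1.73, adjusted p = 0.0036), Il1r2 (4.33), Il18rap (5.28) and Il1rap (1.07, adjusted p = 0.010) higher and Il1rl1 (-1.39, adjusted p = 0.0084) lower after I/R. The differences of Il1b (1.01, adjusted p = 0.41) and Nlrp3 (0.43, adjusted p = 0.35) were not called there. With enpatoran, Il1r1, Il1r2 and Il18rap were lower in cluster 7 (-1.65, -2.04 and -3.80, adjusted p = 0.029, 0.0039 and 0.0033) and in cluster 15 (-2.70, -1.65 and -2.72, adjusted p = 0.023, 0.032 and 0.035), and no other member was called in either. Il1r1 in cluster 15 had means of 502 CPM in NS-I/R and 76.7 with enpatoran, while Il1b there had 121 and 113. These fits within clusters were chosen after the data were seen.

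Markers of other cell types moved with these changes. The 8 neutrophil markers summed to 0.206 to 0.309 UMIs per macrophage nucleus in sham libraries, 0.735 to 1.85 in NS-I/R and 0.528 to 0.808 in Enpa-I/R, and S100a8 and S100a9 were themselves called higher after I/R (9.25 and 6.98) and lower with enpatoran (-1.68 and -1.23). The 7 endothelial markers summed to 0.200 to 0.430, 0.563 to 1.01 and 0.614 to 0.863. Others went the other way: the 7 cardiomyocyte markers summed to 8.65 to 10.6 UMIs per macrophage nucleus in sham, 4.67 to 5.43 in NS-I/R and 6.72 to 7.65 in the Enpa-I/R libraries, with no overlap between groups. The 7 fibroblast markers summed to 0.513 to 0.546, 0.265 to 0.348 and 0.356 to 0.741, with NS-I/R under all others. For each S100a9 UMI in NS-I/R, macrophages held 0.894 Il1b, 2.52 Il1r2 and 4.57 Il18rap UMIs, neutrophils 0.305, 1.31 and 1.62, and endothelial nuclei 0.249, 0.739 and 1.05. The macrophage ratios were the highest of the 3 classes for each gene. The part of RNA from these other cell types in the macrophage changes was not tested.

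To set detection apart from depth, each nucleus was thinned to 1000 UMIs and shallower ones were left out, 103 of 823 in sham hearts, 192 of 1406 in NS-I/R and 109 of 1134 in Enpa-I/R macrophages. The share with an Il1r1 UMI was then 1.18% ± 0.95 in sham hearts, 15.9% ± 5.34 in NS-I/R and 3.04% ± 0.19 with enpatoran (SD, n = 3), and 2.70%, 22.4% and 6.11% without thinning. For Il18rap the thinned shares were 0.897%, 26.6% and 3.91%. The order of the groups was the same in both readings.

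In neutrophil-like nuclei a comparison with sham was not possible, and the 6 I/R libraries were compared with each other. The class held 1367 nuclei in NS-I/R and 325 with enpatoran. Of the 7 members tested, 0 were called by edgeR (background 1.8%), while 3 had an unadjusted p under 0.05 (Il1r1, Il1r2 and Il18rap) and DESeq2 called 1. Il1b was at 691, 391 and 197 CPM in NS-I/R and 599, 468 and 728 with enpatoran. The groups overlapped, and the difference was 0.47 ± 0.38 (adjusted p = 0.55). Il1rn was at 86.1, 90.1 and 36.6 CPM and at 162, 72.3 and 99.3 (0.66, adjusted p = 0.44), again with overlap.

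For 2 receptor genes the groups did not overlap in neutrophils, though no difference passed the threshold. Il1r2 was at 1725, 1410 and 1614 CPM in NS-I/R and 2401, 2400 and 2565 with enpatoran, with no overlap and a difference of 0.63 ± 0.23 (adjusted p = 0.16). Il1r1 was at 174, 203 and 153 CPM and at 84.5, 102 and 99.3, also with no overlap (-0.88, adjusted p = 0.125). Il18rap was at 3532, 3367 and 514 CPM in NS-I/R and 683, 540 and 612 with enpatoran. The NS-I/R replicate 3 value was lower than all Enpa-I/R values, and the other 2 were far above them. The Il18rap difference was -2.01 ± 0.52 (adjusted p = 0.061), and without NS-I/R replicate 3 it was -2.51 (adjusted p = 7.5e-09). Without that library 4 members were called: Il1r1 (-0.99, adjusted p = 0.014), Il18rap and Nlrp3 (-0.78, adjusted p = 0.021) lower and Il1r2 (0.64, adjusted p = 0.015) higher. Since the library was singled out by its own member values, these calls are a description only. Nlrp3 was at 300, 291 and 92.9 CPM in NS-I/R and 225, 145 and 149 with enpatoran (-0.37, adjusted p = 0.68), and Il1rap at 834, 566 and 283 and at 768, 311 and 844 (0.15, adjusted p = 0.88).

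The neutrophil marker Csf3r, the receptor for the granulocyte growth factor, was itself higher with enpatoran in this class (1.78 ± 0.37, adjusted p = 0.031). It had 3.03 UMIs per nucleus in NS-I/R and 7.12 with enpatoran. The endothelial markers given above reached higher sums in NS-I/R and the cardiomyocyte markers in Enpa-I/R, both with overlapping library ranges. The 8 neutrophil markers summed to 7.05, 6.28 and 13.03 UMIs per nucleus in NS-I/R replicates 1, 2 and 3. In the Enpa-I/R libraries they summed to 14.94, 16.35 and 13.61. By these markers NS-I/R replicate 3 lay nearer to the Enpa-I/R libraries than replicates 1 and 2 did. That library also had the highest endothelial marker sum, 6.97. How much of the neutrophil differences, or of the gap between NS-I/R libraries, goes with purity was not tested. Il18, Il33 and Il1rl1 did not pass the filter in neutrophils, with 36, 17 and 37 UMIs in NS-I/R.

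**Figure D3:**
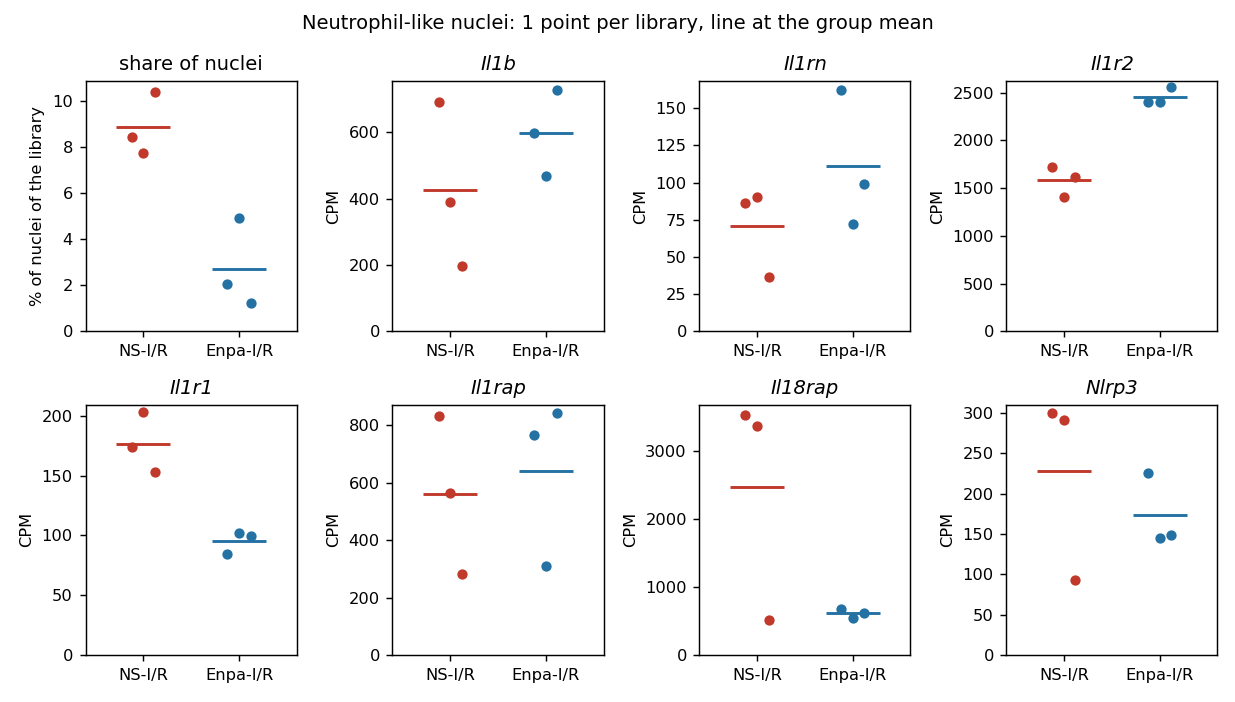
The share of nuclei that were neutrophil-like (first panel, percent of the library) and the CPM of the 7 tested members in them (other panels, vertical axes from 0), with 1 point per library of NS-I/R and Enpa-I/R and a line at each group mean. Il1r2 and Il1r1 did not overlap between groups, and the Il18rap points of NS-I/R were 3532, 3367 and 514.

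Il1r1, the signalling receptor of interleukin-1β, rose after I/R in stromal and vessel classes as well as in macrophages. It was called higher in 6 of the 7 tested classes: cardiomyocytes, endothelial nuclei, fibroblasts, macrophages, pericytes and smooth muscle. The call in cardiomyocytes carries a limit that is given below. In fibroblasts it was at 432, 350 and 368 CPM in sham hearts, 990, 911 and 492 in NS-I/R and 479, 558 and 519 with enpatoran. NS-I/R lay above sham in every library, but its replicate 3 fell within the enpatoran range. The changes were 1.06 ± 0.21 (adjusted p = 0.0016) and -0.62 ± 0.21 (adjusted p = 0.075, not called, in a class where 9.66% of genes were called for enpatoran). Without NS-I/R replicate 3 the enpatoran difference was -0.87 and was called (adjusted p = 1.9e-05). That call is a description only, since the library was singled out by its own member values. Fibroblast nuclei of the groups came from different clusters: cluster 9 held 1542 sham, 55 NS-I/R and 243 Enpa-I/R nuclei, and cluster 6, led by Tnc and Adam12, held 4, 1436 and 827. In cluster 1, present in all groups, Il1r1 had means of 277 ± 29.1, 776 ± 309 and 437 ± 23.9 CPM. In cluster 19 the means were 243 ± 29.3, 412 ± 189 and 270 ± 45.1 CPM. Cluster 9 went the other way, with 417 ± 53.1, 315 ± 115 and 262 ± 19.1 CPM, though 1 of its NS-I/R libraries held only 2 nuclei. The rise was thus not seen in every fibroblast cluster.

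In pericytes, the mural cells of capillaries, Il1r1 was at 184, 173 and 211 CPM in sham hearts, 930, 721 and 502 in NS-I/R and 399, 438 and 294 with enpatoran. The 3 groups did not overlap. It rose by 1.93 ± 0.21 (adjusted p = 5.4e-06), and the enpatoran difference of -0.93 ± 0.20 was called (adjusted p = 0.016) but lost in 5 of 18 alternatives. In smooth muscle it was at 102, 134 and 74.0 CPM, then 614, 389 and 277, then 230, 223 and 196. These groups did not overlap either, and the rise of 2.02 ± 0.30 was called (adjusted p = 0.0019), against a background of 6.17% of genes in that class. The enpatoran difference there was -0.97 (adjusted p = 0.19), in a class where 0.0143% of genes were called for enpatoran, and without NS-I/R replicate 3 it was -1.19 and was called (adjusted p = 0.014).

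In blood endothelial nuclei Il1r1 was at 150, 187 and 176 CPM in sham hearts, 334, 361 and 304 in NS-I/R and 314, 263 and 245 with enpatoran. Both I/R groups lay above sham and overlapped each other, with a rise of 0.96 ± 0.13 (adjusted p = 0.00014) and an enpatoran difference of -0.28 (adjusted p = 0.17). The clusters of this class shifted too. Cluster 8 held 34.2% of its sham, 1.78% of its NS-I/R and 5.95% of its Enpa-I/R nuclei, and cluster 10 held 0.404%, 29.7% and 12.2%. The part of that shift in the Il1r1 rise was not tested. In lymphatic endothelial nuclei Il1r1 was at 115, 88.6 and 86.8 CPM, then 145, 91.2 and 87.3, then 65.9, 42.9 and 107, with overlap between all groups and no call. In cardiomyocytes it was low, at 4.58, 2.17 and 3.19 CPM in sham hearts, 10.4, 11.9 and 5.75 in NS-I/R and 6.65, 7.99 and 5.59 with enpatoran, and the rise of 1.53 ± 0.34 was called (adjusted p = 0.0046). The enpatoran difference there was -0.48 (adjusted p = 0.29), and, as description only, -0.73 without NS-I/R replicate 3 (adjusted p = 0.044). Cardiomyocytes of NS-I/R hearts held 0.104 Il1r1 UMIs per nucleus, the lowest of the 6 tested classes outside macrophages, against 3.10 in fibroblasts. Free RNA was not estimated, so the cardiomyocyte call is not read as expression by those cells. Cardiomyocyte clusters shifted as well, with 79.0% of sham, 9.65% of NS-I/R and 38.0% of Enpa-I/R cardiomyocytes in cluster 0. By mean CPM in NS-I/R the order for Il1r1 was fibroblasts, pericytes, smooth muscle, endothelial nuclei, macrophages, neutrophils, lymphatic endothelial nuclei and cardiomyocytes. The library ranges of neighbours in that order overlapped from fibroblasts down to neutrophils. Lymphatic endothelial nuclei lay under neutrophils but reached into the macrophage range, and cardiomyocytes lay under all other classes.

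**Figure D4:**
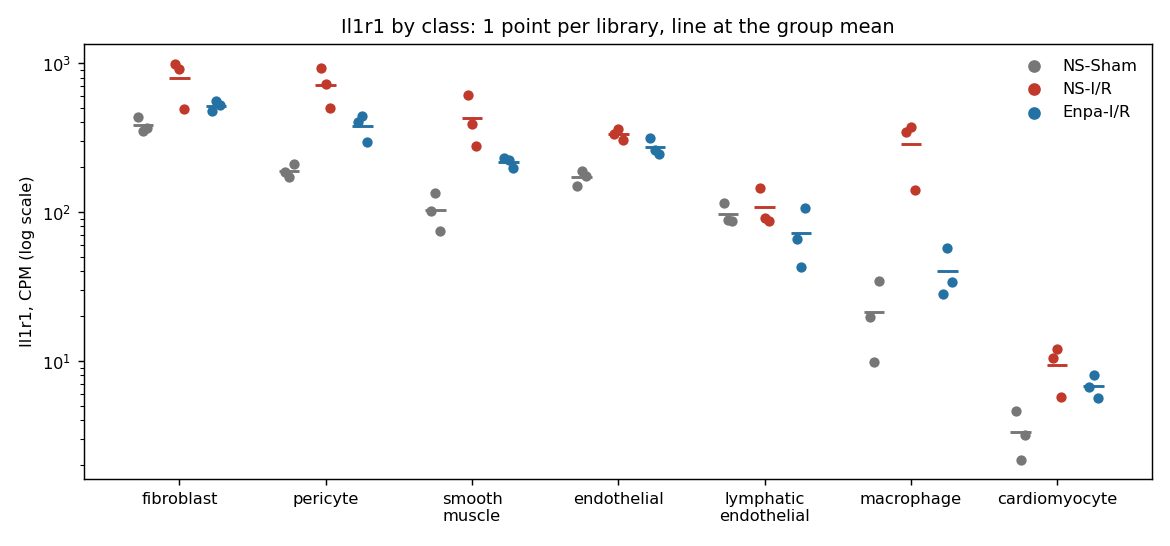
Il1r1 in CPM (log scale, vertical axis) by class, with 1 point per library and a line at each group mean for the 3 groups. NS-I/R lay above sham without overlap in 6 of the 7 classes, all but lymphatic endothelial nuclei.

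Il33, the alarmin, went opposite ways in fibroblasts and lymphatic endothelium after I/R. In fibroblasts it was at 41.9, 67.5 and 55.6 CPM in sham hearts, 88.0, 78.0 and 91.0 in NS-I/R and 69.0, 57.2 and 68.5 with enpatoran. NS-I/R lay above all others, with a rise of 0.62 ± 0.17 (adjusted p = 0.0087) and an enpatoran difference of -0.40 (adjusted p = 0.13). In fits within clusters, chosen after the data were seen, the I/R difference was 0.69 in cluster 1 (adjusted p = 0.048) and -0.27 in cluster 19 (adjusted p = 0.85). Cluster 9, mostly sham, had means of 42.0 CPM in sham and 18.7 in NS-I/R, where 1 library held 2 nuclei. Cluster 6, nearly absent in sham, had 89.0 in NS-I/R. The part of this cluster shift in the rise was not tested. In lymphatic endothelial nuclei Il33 was at 53.7, 103 and 104 CPM in sham hearts, 27.4, 8.29 and 6.71 in NS-I/R and 35.1, 61.2 and 77.0 with enpatoran. The UMIs behind these values were 7, 22 and 12, then 7, 2 and 2, then 8, 10 and 13. All NS-I/R libraries lay under all others. It fell by 2.61 ± 0.54 (adjusted p = 0.0023, background 13.4%), and the enpatoran difference of 1.97 ± 0.56 was not called (adjusted p = 0.081, background 1.06%). In blood endothelial nuclei the Il33 difference was -0.48 after I/R (adjusted p = 0.21).

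**Figure D5:**
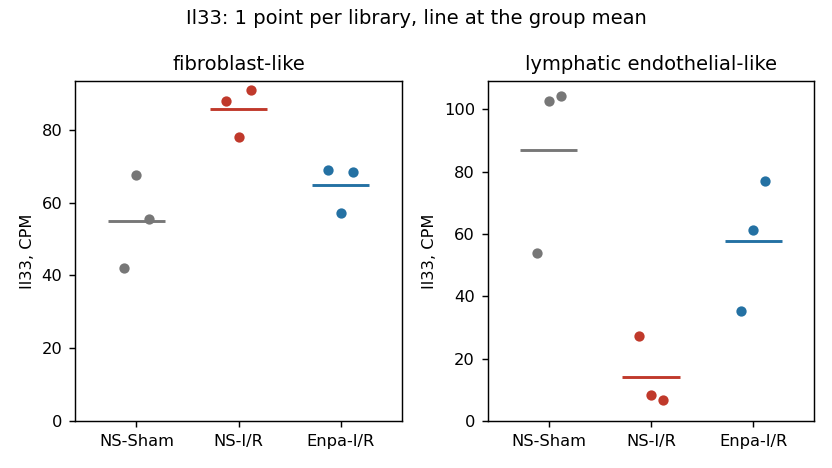
Il33 in CPM (vertical axes from 0) in fibroblast-like and lymphatic endothelial-like nuclei, with 1 point per library and a line at each group mean. NS-I/R was the highest group in fibroblasts (78.0 to 91.0) and the lowest in lymphatic endothelial nuclei (6.71 to 27.4).

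Il1rap, Il18, Il1rn and Il1rl1 were called in macrophages and in no other class. Il1rap was tested in all 7 classes, and in pericytes it was at 133, 142 and 135 CPM in sham hearts, 118, 94.6 and 109 in NS-I/R and 107, 97.5 and 91.0 with enpatoran, lower in every I/R library than in sham but not called (-0.35, adjusted p = 0.12). Il18 was tested in fibroblasts as well, with a difference of -1.36 ± 0.64 after I/R (adjusted p = 0.10). Il1rn and Il1rl1 passed the filter in macrophages alone, and Il33 in fibroblasts and in both endothelial classes.

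Of the other genes of the pathway, 43 were followed from a list of receptors and inhibitors, inflammasome parts and signalling genes. In macrophages 33 were tested after I/R, with 6 higher and 7 lower, a share near the background of 34.9%. Mefv, which encodes the inflammasome sensor pyrin, stood at 2.64 ± 2.49 CPM in sham and 32.5 ± 13.3 in NS-I/R (log2 fold change 3.40 ± 0.56), and Pycard, the inflammasome adaptor, at 14.2 ± 2.01 and 48.9 ± 8.34 (1.79 ± 0.28). Nfkbia, the NF-κB inhibitor that NF-κB itself induces, rose by 2.15 ± 0.27. The sensors Nlrc4 and Nlrp1b and the NLRP3 partner Nek7 were lower, with log2 fold changes of -1.84, -1.56 and -0.81, each with an adjusted p of at most 0.00047; reads of Nlrp1b could be split with its near copy Nlrp1a. With enpatoran 3 of the 33 were called in macrophages (background 6.28%): Nlrp1b higher (1.12) and Il1rl2, the interleukin-36 receptor, and Nfkbia lower (-1.21 and -0.83).

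In the stromal and vessel classes and in cardiomyocytes more of these genes were called higher than lower after I/R. Of the 43 genes, 10 were higher and 1 lower among 24 tested in pericytes (background 23.8%), 9 higher and 6 lower among 29 in fibroblasts (46.6%), 10 higher and 1 lower among 31 in endothelial nuclei (33.9%) and 8 higher and 1 lower among 26 in cardiomyocytes (45.3%). In smooth muscle 3 were higher and 0 lower among 18 (6.17%), and in lymphatic endothelial nuclei 2 and 0 among 15 (13.4%). The called share was near the background in fibroblasts and in both endothelial classes, and under it in cardiomyocytes. These backgrounds cover both directions. Over the 7 classes pooled, 16.9% of all gene tests were called higher and 16.2% lower. In fibroblasts Nfkbiz, a nuclear NF-κB cofactor, went from 53.5 ± 5.97 to 255 ± 51.4 CPM (2.26 ± 0.16) and Myd88, the receptor adaptor, rose by 1.38 ± 0.29, while Gsdmd, the pore former, was lower (-1.12 ± 0.27). In pericytes Irak3, a brake on the receptor kinases, went from 33.2 ± 10.0 to 202 ± 61.8 CPM (2.65 ± 0.27), and Casp4, an inflammatory caspase, rose by 2.36 ± 0.34. In endothelial nuclei Sigirr, an inhibitory receptor of the family, was lower after I/R (-1.48 ± 0.25) and higher with enpatoran (1.07 ± 0.25, background 5.94%).

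With enpatoran 6 of the 26 genes tested in cardiomyocytes were lower (background 18.9%, and 11.3% for lower genes), among them Pycard (-2.60 ± 0.45) and Nfkbiz (-1.40 ± 0.30). In pericytes 2 of 24 were lower (background 5.5%, and 2.81% for lower genes), Irak3 (-1.59 ± 0.24) and Nfkbiz (-1.12 ± 0.23). In neutrophils 1 of 30 was called (background 1.8%), Gsdmd, which was higher with enpatoran (37.7 ± 15.4 CPM in NS-I/R against 135 ± 42.8, a log2 fold change of 1.70 ± 0.38, adjusted p = 0.041). Pycard was higher after I/R in each of cardiomyocytes, endothelial nuclei, macrophages and pericytes, and free RNA was not estimated for it.

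The genes whose levels over 23 class-by-group means followed each member most closely were found among 12413 genes by Pearson's r, given as a description since the means share libraries. Il1b went with Slfn1 (0.981), Il1rn with Treml2 (0.990), Il1r2 with Mirt1 (0.978), Il18rap with Cd300lf (0.965) and Nlrp3 with Hk3 (0.982). Il1r1 went with Scarf2 (0.909), Il1rap with Atg3 (0.933), Il33 with Enpp3 (0.926), Il18 with Irf5 (0.954) and Il1rl1 with Gpr65 (0.967). Gpr65 was also the second gene for Il18 (0.951), and Cd300lf the second for Il1r2 (0.973).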

How the data were processed

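Nuclear RNA of 9 frozen hearts was read with the 10x Chromium 3′ kit v3.1, per the labels' protocols, and the 9 libraries held 19651794 to 38970153 UMIs in 56766 barcodes. The deposited values are raw UMI counts per gene and barcode, and the file headers name Cell Ranger 8.0.0. The submitters' processing notes list Cell Ranger 6.1.1, Seurat, GRCh38 and GRCm39 without roles. The labels' replicates are separate hearts, and no batch is named.

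Nuclei with at least 500 genes and at most 5% mitochondrial UMIs were kept, and the top 0.8% by Scrublet score per 1000 barcodes were removed as doublets. Clustering used 2000 variable genes without members, pathway or mitochondrial genes, 30 components, 15 neighbours and Leiden at resolution 1 (scanpy 1.11.5). Names needed at least 3 markers that passed (5% of nuclei, 2-fold over the median of clusters) and a lead of 0.5 log2 over the next type; 1 cluster (409 NS-I/R, 0 sham and 9 Enpa-I/R nuclei) stayed unnamed. Its markers were endothelial and pericyte genes, and its leading genes were heat-shock genes.

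For each class the UMIs of a library were added up, low genes were dropped by filterByExpr, and edgeR 4.0.16 was run with TMM factors and its quasi-likelihood F test. Benjamini-Hochberg adjustment covered all genes of a class and contrast, with a threshold of 0.05. Each fit held 9 libraries, or the 6 I/R libraries for neutrophils. P-values measure the spread between hearts. CPM are TMM-scaled, ± is the SD over 3 libraries for levels and the SE for log2 fold changes. A fold against 0 UMIs uses a floor of 3 counts over the group, and 1 to 3 UMIs give a ratio with an exact 95% interval. All 10 members are named. Pathway genes are named by the largest called changes, at most 3 in each direction per class, with at least 10 CPM and no overlap; fewer are printed. Genes of like pattern are the highest Pearson r of log2(CPM + 1). The members, lists and tests were chosen with earlier results of these data known. Promoter windows of all 10 members were found. The edgeR fit was also tried on simulated counts, for macrophages and the enpatoran contrast alone. Alternatives were DESeq2 1.42.0 (size factors, Wald test), no low-count filter, the 6 libraries of a contrast, the replicate block, each library left out, 20% mitochondrial UMIs, 1000 genes, doublets kept and Leiden resolution 2.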

Additional observations from a re-analysis of the deposited data

Results flagged for a closer look

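Il33 differed in opposite directions in 2 classes. After I/R its log2 fold change was 0.62 in fibroblast-like nuclei, where all NS-I/R libraries lay above sham, and -2.61 in lymphatic endothelial-like nuclei, where all lay under sham. With enpatoran the differences were -0.40 and 1.97, again with every library on one side in each class. The difference between the classes was not tested, and neither enpatoran value was called on its own.

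Il1rap after I/R was 1.27 in macrophage-like nuclei and -0.35 in pericyte-like nuclei, with no overlap between NS-I/R and sham in either class. This difference was not tested, and the pericyte value was not called.

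Classes too small for a test also held Il1r1. Adipocyte-like nuclei had 29.1 Il1r1 UMIs per nucleus in NS-I/R, above the sham level, but 1036 of the 1048 UMIs came from 30 nuclei of replicate 2, the 3 nuclei of replicate 1 had 12 UMIs and the 3 of replicate 3 had 0, so the value is that of 1 library. In sham 9 such nuclei had 1 UMI and in Enpa-I/R 7 had 12. Mesothelial-like nuclei, the outer lining of the heart, had 3.81 UMIs per nucleus in NS-I/R. By library they had 0.769, 5.34 and 2.48, against 0.472, 0.188 and 0.167 in sham and 0.857, 0.429 and 1.25 in Enpa-I/R, from 12 to 44 nuclei per library.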

How the results depend on the processing

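Fits within single clusters were kept apart from the alternatives. In them Il1b and Nlrp3 in macrophage cluster 7 and Il33 in fibroblast cluster 19 were not called after I/R. All 26 calls of the I/R comparison within classes held in each of their 18 alternatives. The alternatives gave counts of 26 to 39, and of 26 to 31 with 1 library left out. Of the 14 enpatoran calls within classes, 6 held in each of those: Il18rap in cardiomyocytes, endothelial nuclei, pericytes and macrophages, and Il1r1 and Il1r2 in macrophages. The enpatoran count was 10 with the 6 libraries of the contrast and 21 without the low-count filter, and with 1 library left out it ran from 6 (Enpa-I/R replicate 3) to 20 (NS-I/R replicate 3). Counted with 5 members in macrophages alone, the 2 counts were 15 and 6. Over all nuclei the I/R count was 7 to 8, also with 1 library left out, and the enpatoran count of 7 fell to 1 with the 6 libraries of the contrast and ran from 1 (without NS-I/R replicate 1, Enpa-I/R replicate 1 or Enpa-I/R replicate 3) to 8 (without NS-I/R replicate 3). In neutrophil-like nuclei the count of 0 became 1 without the low-count filter, with the DESeq2 Wald test, with all 9 libraries, with the replicate block and with 20% mitochondrial UMIs, and ran from 0 to 4 with 1 library left out (4 without NS-I/R replicate 3). The minimum of 1000 genes was not run for neutrophils, since 2 Enpa-I/R libraries then held under 25 of them. With the replicate block, where the number was the block, 26, 12, 8, 5 and 1 members were called in the 5 comparisons, and same-numbered libraries correlated between -0.14 and 0.05, so the numbers are not read as pairs.

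Direction turned for 9 differences under at least 1 alternative. Il33 in fibroblasts was -0.27 after I/R and 0.015 with enpatoran within cluster 19. Il1rl1 in macrophages with enpatoran ran from -0.41 (without NS-I/R replicate 3) to 0.51 (without NS-I/R replicate 2) with 1 library left out, with -0.025 without Enpa-I/R replicate 1, and was -0.33 within cluster 7. Il1rap in neutrophils was -0.041 without the low-count filter, -0.058 with all 9 libraries and -0.067 at Leiden resolution 2, and ran from -0.25 (without NS-I/R replicate 3) to 0.55 (without NS-I/R replicate 1), with -0.058 and -0.082 without Enpa-I/R replicates 1 and 3. Of differences that were not called, Il1rap with enpatoran in cardiomyocytes was 0.044 without the low-count filter and ran from -0.28 (without Enpa-I/R replicate 2) to 0.13 (without Enpa-I/R replicate 3), and in pericytes it was 0.034 with doublets kept. After I/R, Il1rap in smooth muscle was 0.033 with 20% mitochondrial UMIs and ran from -0.47 (without NS-I/R replicate 3) to 0.055 (without NS-Sham replicate 3), Il1r1 in lymphatic endothelium ran from -0.092 (without NS-I/R replicate 1) to 0.31 (without NS-I/R replicate 3), and Il18 over all nuclei was 0.075 with 20% mitochondrial UMIs and ran from -0.34 (without NS-Sham replicate 3) to 0.072 (without NS-Sham replicate 1). The cause was not tested. Depth limits the low members: Il1rn in macrophages rested on 64 UMIs in NS-I/R and 2 in sham, Il33 in lymphatic endothelium on 2 to 22 per library, and Il1rl1 and Il18 passed the low-count filter in 1 and 2 of the 7 classes.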

Other observations

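T/NK-like nuclei, lymphocytes too few for a test (8 to 38 per library), carried 2 receptor members at rest. Il18rap, through which these cells respond to interleukin-18, had 2.00, 0.595 and 1.23 UMIs per nucleus in the sham libraries, 2.35, 0.778 and 1.03 in NS-I/R and 1.22, 0.375 and 0.214 with enpatoran. All 3 groups overlapped. Il1rl1 in the same nuclei had 2.00, 0.216 and 0 in sham hearts, 0.769, 0.444 and 0.263 in NS-I/R and 0.111, 0.312 and 0.214 with enpatoran, so that 16 of the 24 sham UMIs came from 8 nuclei of 1 library. Schwann-like nuclei, the glia of cardiac nerves, held Il1rap at 1.08 to 2.92 UMIs per nucleus in sham, 1.17 to 1.91 in NS-I/R and 1.61 to 2.10 in Enpa-I/R, with overlap between all groups. In mesothelial-like nuclei Il33 stood at 0.333 to 1.92 UMIs per nucleus in sham, 0.286 to 1.05 in NS-I/R and 0.250 to 0.964 in Enpa-I/R.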
